A study of Mus musculus with 4 samples.

Results

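The genes described here are 10 components and outputs of the circadian clock, chosen by symbol: Per1, Per2, Per3, Cry1, Cry2, Nr1d1, Nr1d2, Dbp, Tef and Ciart. Of these, 9 had a row among the 19465 genes of the deposited table, and Ciart is not analysed here. The rule reads symbols and sets no threshold on a measured value. Counts were read in 12602 spots from coronal brain sections that contain the striatum. The tissue was formalin-fixed and paraffin-embedded, and the Visium CytAssist assay captures gene probes on a grid of barcoded spots, each of which can hold several cells. The study had 4 mice in 2 groups, with 2 wild-type mice and 2 Celsr3 heterozygotes (Celsr3 encodes an adhesion receptor of the cadherin family). None of the mice were treated. The heterozygous allele, age, sex, housing light cycle and time of day at collection are not given in the sources used here.

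The ending of each spot's barcode split the spots into 4 sets, called sets 1 to 4. The endings match no sample label, so that 0 of the sets have a known mouse or genotype. Each set is therefore treated as a single library, with no mean over sets, no SD, no p-value and no comparison of genotypes. Levels are given in CPM, the counts of a gene per 1000000 counts of all genes in the same spots. The 95% intervals reflect counting error alone. A difference outside them is one between sections and cannot be assigned to a condition or genotype. A gene is called apart where 2 sets differ at least 1.5-fold in log2(CPM + 1). Genes whose mean was under 1 CPM were not compared. Fewer cells of a type and less RNA per cell cannot be told apart in such sums.

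In the mammalian clock the activators CLOCK and BMAL1 bind E-box sequences and switch on the Per and Cry genes, whose proteins return to the nucleus and block the activators. A further loop runs through Nr1d1 and Nr1d2, which encode the receptors REV-ERB alpha and beta. These repress genes that the ROR receptors activate through the same DNA element. Dbp and Tef encode PAR bZIP factors, which carry the rhythm to further genes by binding D-boxes. Messenger RNA of most of these genes rises and falls over the day in many tissues, with peaks at different times. In the brain the pacemaker lies in the suprachiasmatic nucleus, and other areas keep rhythms of their own. Per1 and Per2 are also switched on quickly by light and by neuronal activity.

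The stretch just before the start of the RNA is printed for 4 genes. They are close relatives for which sets 2 and 4 lay on opposite sides of sets 1 and 3 in the values that follow. Per2 lay opposite to Per3 over the whole section as well, but no such stretch was available for it. Sequences are from RefSeq on GRCm38.p6, cover the 250 bases before the start and run 5′ to 3′ along the gene. Capitals mark matches to a searched motif on either strand. Per1 has more than 1 start in the table, and its first is shown.
Per1, chr11:69098699-69098948, plus strand: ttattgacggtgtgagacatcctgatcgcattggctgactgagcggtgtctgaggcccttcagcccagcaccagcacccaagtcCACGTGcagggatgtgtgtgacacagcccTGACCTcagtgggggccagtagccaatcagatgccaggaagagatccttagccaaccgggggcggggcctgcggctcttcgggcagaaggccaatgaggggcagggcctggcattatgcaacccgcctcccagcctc
Per3, chr4:151044666-151044915, minus strand: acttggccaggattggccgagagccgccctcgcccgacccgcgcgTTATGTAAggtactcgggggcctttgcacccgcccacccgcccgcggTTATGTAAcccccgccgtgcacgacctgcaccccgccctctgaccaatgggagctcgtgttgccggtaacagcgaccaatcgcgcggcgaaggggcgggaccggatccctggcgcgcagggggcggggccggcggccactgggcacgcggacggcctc
Nr1d1, chr11:98775378-98775627, minus strand: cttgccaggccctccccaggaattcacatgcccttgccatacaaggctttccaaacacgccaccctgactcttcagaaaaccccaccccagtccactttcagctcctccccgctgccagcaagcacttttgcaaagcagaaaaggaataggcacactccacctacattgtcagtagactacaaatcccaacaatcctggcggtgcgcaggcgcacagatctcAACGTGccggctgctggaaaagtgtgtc
Nr1d2, chr14:18239107-18239356, minus strand: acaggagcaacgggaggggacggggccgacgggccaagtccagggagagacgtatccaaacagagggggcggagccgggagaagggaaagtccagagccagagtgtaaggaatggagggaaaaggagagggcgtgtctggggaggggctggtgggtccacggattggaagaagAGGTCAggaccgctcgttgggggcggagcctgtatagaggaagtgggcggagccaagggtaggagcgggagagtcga
The search covered 5 motifs, and the share of all 32851 such windows with a match is given for each. The E-box CACGTG was in 6.02% of windows, its variant CACGTT in 3.85%, the D-box TTANGTAA in 2.06%, the ROR core site AGGTCA in 14.0% and the cAMP response element TGACGTCA in 1.55%. Matches of different motifs did not overlap in the windows of these genes. Per1 held an E-box 166 bases and a ROR core site 137 bases before its first start, and the window of its other start had no match. Per3 held D-boxes 205 and 158 bases before its start and no E-box in this window. Nr1d1 held a variant E-box 28 bases before its start, and Nr1d2 a ROR core site 77 bases before its start. Among the other members, both starts of Tef had an E-box, 127 and 138 bases upstream. Cry1 had an E-box at 60 bases and a variant at 79, Cry2 had a variant at 166, and Dbp had no match to the motifs in this window. The table had entries for 8 of the 9 members measured, Per2 being the exception. A match is a description of the letters and not evidence of binding.

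The sets were deep and unequal. They held 3055, 2808, 3444 and 3294 spots and 174761560, 109663162, 165184912 and 90752475 counts in sets 1 to 4, with medians of 52481, 38182, 44972 and 26444 counts per spot. Sets 2 and 4 thus had the lower totals. Of 4744 different barcodes, 1613 occurred in all 4 sets, and the gene totals of any 2 sets differed by far more than counting noise, with a chi-square per degree of freedom of 87.2 or more. Celsr3, whose dosage the study varied, was at 31.7, 46.8, 26.0 and 47.2 CPM in sets 1 to 4 and was not used to assign a set. Each member was backed by 1975 counts or more in every set. Intervals are given for the ratios read, since some pairs of sets differed by no more than counting error.

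Among the period genes, which encode the repressor's PER subunits, the sets split in opposite ways. Per1 was at 70.8, 119.8, 82.8 and 122.7 CPM in sets 1 to 4, and Per2 at 32.3, 61.7, 45.2 and 47.2 CPM. Both were lowest in set 1, and Per1 was about equally high in sets 2 and 4, with a ratio of set 4 to set 2 of 1.02 (0.998 to 1.05). Per3 was at 42.8, 28.0, 64.7 and 27.5 CPM, highest in set 3 and lowest in sets 2 and 4. Its level in set 3 was 2.32 times that in set 2 (2.22 to 2.41). Set 2 over set 1 was 1.69 (1.65 to 1.73) for Per1 and 1.91 (1.85 to 1.98) for Per2, but 0.654 (0.626 to 0.682) for Per3.

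The cryptochromes, the partners of PER in the repressor, moved less. Cry2 was at 98.5, 138.9, 112.2 and 152.2 CPM in sets 1 to 4, with set 4 at 1.55 times set 1 (1.51 to 1.58). Cry1 was at 21.9, 27.7, 22.6 and 21.8 CPM. Its highest value, in set 2, was 1.28 times its lowest, in set 4, and sets 1 and 4 did not differ beyond counting error, with a ratio of 0.994 (0.941 to 1.05).

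The REV-ERB genes split as the period genes did. Nr1d1 was at 101, 221, 118.7 and 214 CPM in sets 1 to 4, which was the largest ratio of set 2 to set 1 among the 9 members, at 2.19 (2.15 to 2.23). Nr1d2 was at 123, 99.1, 117.9 and 92.6 CPM. Sets 2 and 4 were thus above sets 1 and 3 for Nr1d1 and below them for Nr1d2, with a ratio for Nr1d2 of set 4 to set 1 of 0.751 (0.732 to 0.770).

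Both PAR bZIP genes were lowest in set 1 and highest in set 2. Dbp was at 143, 215, 161 and 199 CPM, and Tef at 221, 410.1, 274 and 385 CPM. Set 2 over set 1 was 1.503 (1.48 to 1.53) for Dbp and 1.86 (1.83 to 1.88) for Tef. The value for Dbp lay just below the 1.5-fold line on the log2(CPM + 1) scale, and the value of 1.51 for Per3 in set 3 over set 1 lay just above it.

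**Figure D1:**
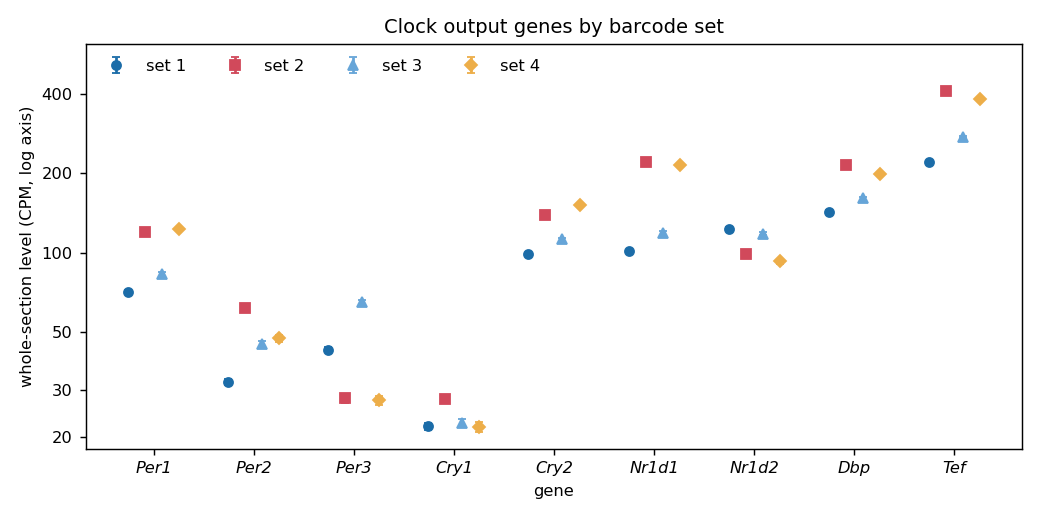
Whole-section levels in CPM, on a log axis, of 9 clock genes in the 4 barcode sets, with 95% Poisson intervals that are mostly smaller than the symbols. Sets 2 and 4 lie above sets 1 and 3 for Nr1d1 (221 and 214 against 101 and 118.7 CPM) and below them for Per3 and Nr1d2. Heights of different genes are not comparable, since probes differ.

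Counting over pairs of sets, 5 of 9 members reached 1.5-fold from set 1 to set 2, where 24.7% of all 13773 genes compared did. Of these 5, Per1, Per2, Nr1d1 and Tef were higher in set 2, as were 8.68% of all genes, and Per3 was higher in set 1, as were 16.0%. The call of Per3 was lost with TMM and RLE scaling, both at 1.44-fold, and with areas weighted equally, at 1.48-fold, and under these 3 settings Dbp passed in its place. Between sets 1 and 4 the count was also 5 of 9, against 26.3% of all genes. Here Per1, Cry2, Nr1d1 and Tef were higher in set 4, as were 11.1% of all genes, and Per3 in set 1, as were 15.1%. This call of Per3 too was lost with TMM and RLE scaling, at 1.49-fold in both.

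Sets 3 and 4 had 2 members apart, Nr1d1 higher in set 4 and Per3 higher in set 3, against 23.4% of all genes (11.4% higher in set 4 and 12% in set 3). Sets 2 and 3 had the same number, Nr1d1 higher in set 2 and Per3 higher in set 3, against 18.2% (7.1% and 11.1%). Both shares are near the background. Sets 1 and 3 differed in 1 member, Per3, against 4.27% of all genes, and sets 2 and 4 in 0 members, against 4.59%.

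The median difference of the 9 members on the log2(CPM + 1) scale was 0.58 for set 2 minus set 1 and 0.54 for set 4 minus set 1, beside medians over all genes of -0.07 and -0.04. For set 3 minus set 1 it was 0.22, beside -0.03. Nr1d1 was the 1 member to reach 2-fold from set 1 to set 2, beside 7.2% of all genes, and likewise from set 1 to set 4, beside 7.45%. The pairs share sets and are not independent of each other.

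**Figure D2:**
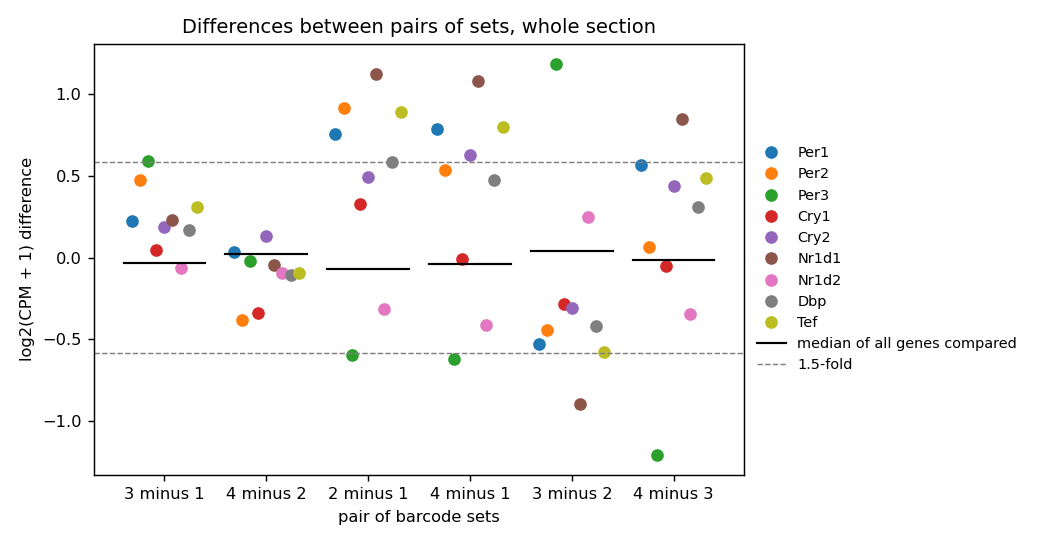
Difference of each member between pairs of barcode sets, on the scale of log2(CPM + 1), over the whole section. Black lines give the median of all 13773 genes compared and dashed lines mark 1.5-fold. Sets 4 and 2 lie close together, with 0 members beyond the lines, while Nr1d1 and Per3 lie beyond them in opposite directions in the 4 pairs of an odd with an even set.

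For 6 of 9 members, Per1, Per2, Cry2, Nr1d1, Dbp and Tef, the levels in sets 2 and 4 were both above those in sets 1 and 3. The same split held for 30.2% of all genes. The opposite split held for Per3 and Nr1d2, and for 37.3% of all genes. Cry1 had neither. This split was picked after the values were seen and is given as a description. It is also the split of total counts, which were lower in sets 2 and 4, and genes of other kinds shared it, Celsr3 among them. Genes switched on by neuronal activity were higher in sets 2 and 4, with summed levels of 657, 1439, 600 and 1484 CPM in sets 1 to 4. Of these 14 genes, 12 were at least 1.5-fold higher in set 2 than in set 1, beside 24.7% of all genes apart in either direction. In set 4, 13 were higher than in set 1, beside 26.3% of all genes. Fos had the widest range, at 15.9, 65.5, 9.24 and 88.2 CPM, and Egr1 the narrowest, with 1.49 between its highest and lowest set. The part of depth, of neuronal activity and of genotype, which is unknown for each set, in the clock gene differences was not tested.

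Ratios between relatives in the same spots do not depend on the library total. Probes differ between genes, so the change of such a ratio over the sets is read here and not its size. Per1 counts over Per3 counts were 1.66, 4.29, 1.28 and 4.46 in sets 1 to 4, and Nr1d1 over Nr1d2 0.820, 2.23, 1.01 and 2.32. In both ratios sets 2 and 4 were the higher, by up to 3.49-fold for the period genes and 2.82-fold for the REV-ERB genes.

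Sets 2 and 4 were both above sets 1 and 3 for each of these ratios in 8 of 8 scopes, the whole section and each of 7 areas with spots in every set. Per2 over Per3 had this split in 8 as well. A ratio must split this way where its upper gene is above and its lower gene below in sets 2 and 4. That held in 8 scopes for the REV-ERB genes, in 7 for Per1 with Per3 and in 6 for Per2 with Per3. These counts thus largely restate the splits of the single genes. Per1 over Per2, which shared the split as single genes, had the split in 2 scopes, and its whole-section values were 2.19, 1.94, 1.83 and 2.60. Tef over Dbp had the split in 6 scopes and stayed between 1.55 and 1.93 over the sets of the whole section. Cry2 over Cry1 had the split in 5 scopes and was 4.50, 5.01, 4.96 and 6.99 over the whole section.

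**Figure D3:**
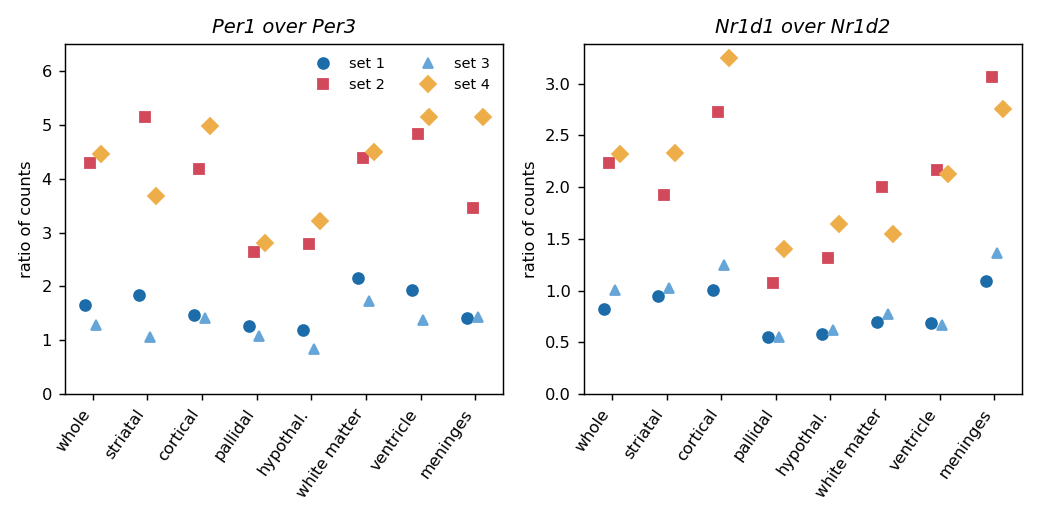
Ratio of counts of Per1 to Per3 and of Nr1d1 to Nr1d2 by barcode set, over the whole section and in 7 areas. In each place both ratios are higher in sets 2 and 4 (squares and diamonds) than in sets 1 and 3 (circles and triangles). The single genes of each pair split in opposite ways, so the ratios largely restate those splits.

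To separate the mix of areas from the level within an area, spots were grouped into 31 clusters without the clock genes, and clusters were joined into areas by marker genes. Striatal spots, led by genes of medium spiny neurons such as Ppp1r1b, Drd2 and Penk, numbered 643, 765, 802 and 477 in sets 1 to 4. Cortical spots, with genes such as Slc17a7, Fezf2 and Cux2 among their leading genes, numbered 852, 1024, 1107 and 1016. Different clusters supplied these areas in different sets. The striatal spots came mostly from cluster 0 in sets 1 and 3, from cluster 3 in set 2 and from cluster 17 in set 4, with the Pdyn-led cluster 11 in all 4 sets. Clusters 5 and 21, both with Arc among their leading genes, held most cortical spots of set 4.

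Within striatal spots the relatives again split in opposite ways. Per1 was at 86.1, 145, 87.9 and 124 CPM in sets 1 to 4, and Per3 at 46.6, 28.3, 82.4 and 33.7 CPM. Nr1d1 was at 118, 204, 119.9 and 208 CPM, so that sets 2 and 4 did not differ beyond counting error (ratio 1.02, 0.974 to 1.07), nor did sets 1 and 3 (ratio 1.01, 0.968 to 1.06). Nr1d2 was at 125, 106, 116 and 89.3 CPM.

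Tef in striatal spots was at 367, 582, 415 and 656 CPM, and Dbp at 299, 377, 303 and 396 CPM. Dbp varied less over the sets here than over the whole section, and its levels in sets 1 and 3 did not differ beyond counting error (ratio 1.01, 0.984 to 1.04). Cry1 was at 34.1, 43.3, 32.6 and 27.1 CPM, the 1 member apart between sets 2 and 4, with a ratio of 0.627 (0.552 to 0.710). With counts thinned to the smallest set its difference was 1.48-fold and the call was lost.

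Between striatal spots of sets 1 and 2, 5 of 9 members were apart, against 21.6% of 13202 genes compared. Sets 2 and 3 had 4 apart (18.7% of genes), sets 3 and 4 had 3 (22.8%), sets 1 and 4 had 2 (25.7%), sets 1 and 3 had 1, Per3 (3.28%), and sets 2 and 4 had 1, Cry1 (4.33%).

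Cortical spots showed wider differences for several members. Nr1d1 was at 117, 267, 148 and 281 CPM in sets 1 to 4, and set 4 over set 1 was 2.41 (2.34 to 2.49). Per1 was at 65.8, 123, 84.7 and 143 CPM, and Per2 at 28.6, 63.3, 42.3 and 52.8 CPM. Per3 was at 44.7, 29.4, 59.8 and 28.8 CPM, with sets 2 and 4 not differing beyond counting error (ratio 0.979, 0.903 to 1.06).

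Of the remaining members in cortical spots, Cry2 was at 101.7, 149, 121 and 175 CPM, Dbp at 97.2, 158, 128 and 169 CPM, and Tef at 208, 374, 258 and 385 CPM. All 3 were lowest in set 1 and highest in set 4. Nr1d2 was at 116, 97.9, 118 and 86.6 CPM, and Cry1 at 14.1, 20.5, 17.01 and 16.8 CPM.

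In cortical spots, 7 of 9 members were apart between sets 1 and 4, against 26.9% of 13166 genes, and 6 of 9 between sets 1 and 2, against 23.1%. Per3 was among them in both pairs, and its calls were lost with TMM and RLE scaling, finer clusters or the cortical marker lists kept apart, at 1.42-fold to 1.49-fold. Sets 3 and 4 had 3 apart (22.1%) and sets 2 and 3 had 2 (18.7%). Sets 1 and 3 had 0 (2.73%), as had sets 2 and 4 (1.68%). The activity-induced genes moved with the sets within both areas, at 797, 1456, 655 and 1214 CPM summed in striatal spots and 979.8, 1832, 779 and 2529.7 CPM in cortical spots, and their part in the result was not tested there.

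Over the whole section and the 7 areas with spots in every set, Cry2, Nr1d1, Dbp and Tef were higher in sets 2 and 4 than in sets 1 and 3 in 8 of 8 scopes. Per1 had that split in 7 and Per2 in 6. Per3 and Nr1d2 had the opposite split in 8 of 8. Cry1 had the first in 2 scopes and the second in 1. The scopes reuse the same libraries and the whole section contains the areas, so these counts are not independent of each other. Over the whole section alone, 30.2% of all genes had the first split and 37.3% the second. The share of all genes with a split in every scope is not given here.

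**Figure D4:**
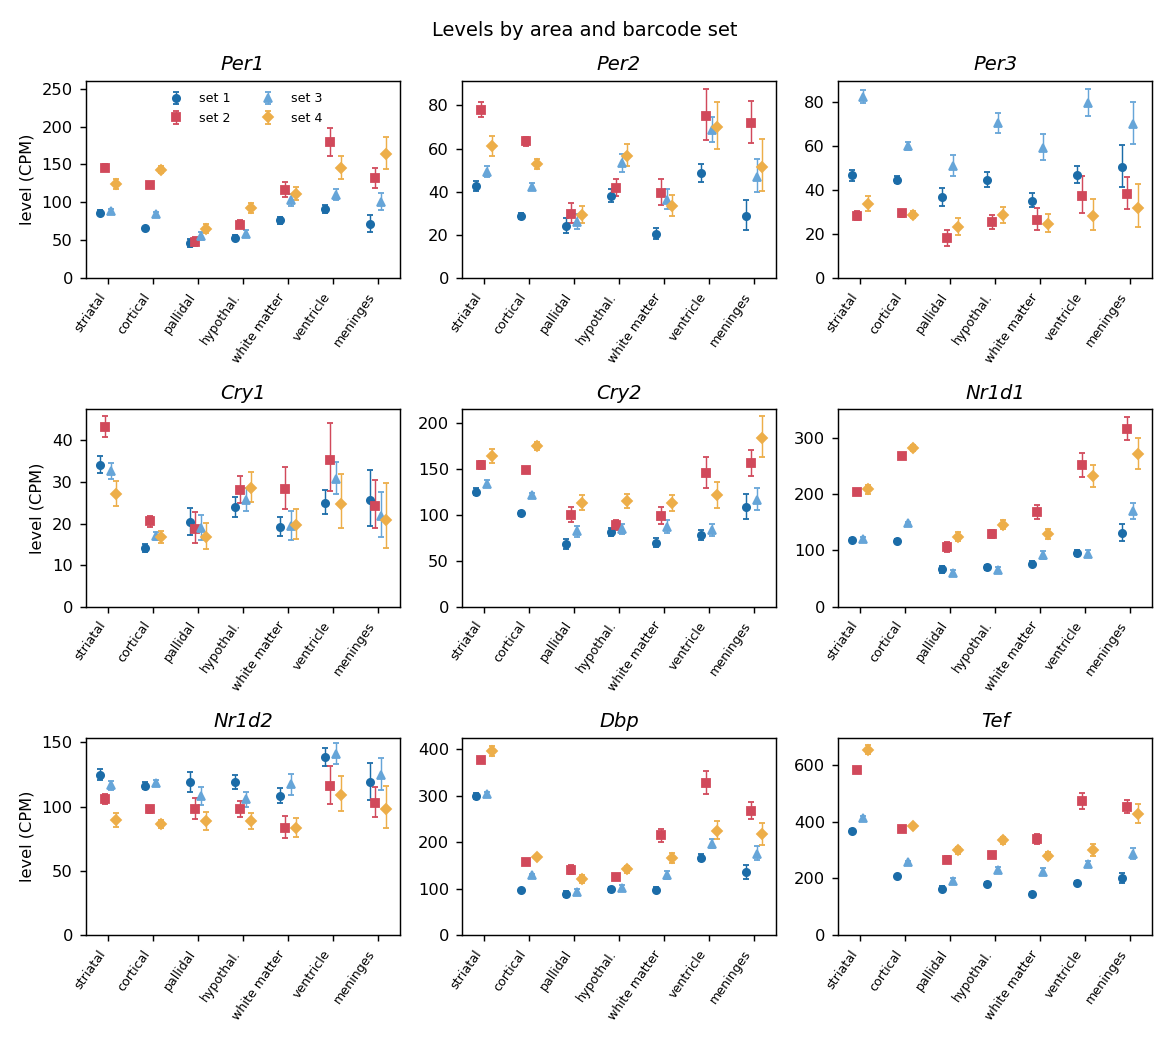
Level in CPM of each member in 7 brain areas by barcode set, with 95% Poisson intervals. Striatal spots stand highest for Dbp and Tef, pallidal spots are low for Per1 and Nr1d1, and in each area shown sets 2 and 4 lie above sets 1 and 3 for Nr1d1 and below them for Per3. Areas were named from marker genes, and "hypothal." stands for hypothalamic and preoptic spots.

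Across brain areas, Dbp and Tef stood out in the striatum. Dbp in striatal spots was 2.33 to 2.75 times its level in the rest of the same section over the 4 sets, and Tef 1.65 to 1.94 times. These 2 of 9 members were at least 1.5-fold higher in every set, as were 5.39% of all genes, and 0 were lower in every set, beside 12.7%. Within a section, striatal Dbp was 3.03 to 3.38 times its level in the lowest of the 7 areas.

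Cry1 had the same striatal direction with a wider range, 1.29 to 1.91 times the rest of the section, and was 0.542 to 0.674 times in cortical spots. Dbp was also below the rest in cortical spots, at 0.581 to 0.776 times. Nr1d1 went the other way, at 1.26 to 1.63 times the rest in cortical spots and 0.899 to 1.22 times in striatal spots. Neither gene passed 1.5-fold in every set in the cortex, where 0 members did, beside 4.7% of all genes higher and 11.6% lower.

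Pallidal and basal forebrain spots, led by cholinergic neuron genes such as Chat and Slc18a3, had the lower level for each of the 9 members in each of the 4 sets when set against the rest of the section, as had 28.4% of all genes. Not each of these differences was beyond counting error: Nr1d2 was at 0.913 to 0.993 times the rest, with intervals that reached 1 in 3 sets, and the interval of Cry1 did so in set 1 (0.925, 0.786 to 1.08). Per1 at 0.385 to 0.655 times, Nr1d1 at 0.467 to 0.641 times and Dbp at 0.557 to 0.640 times were at least 1.5-fold lower in every set, as were 6.65% of all genes, and 0 were higher, beside 3.18%. With spots assigned by marker score in place of clusters, 0 members were. Per1 there was at 46.2, 47.6, 55.2 and 65.1 CPM in sets 1 to 4, so that set 2 was not above set 3 there.

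Septal spots, counted in sets 2 and 3, had Dbp at 0.546 to 0.568 times the rest, the 1 member at least 1.5-fold lower in both, beside 7.62% of all genes, with 0 higher, beside 6.3%. Hypothalamic and preoptic spots had 0 members past 1.5-fold in every set, beside 6.08% of genes higher and 6.75% lower. Nr1d1 there was at 0.530 to 0.668 times the rest and Per1 at 0.566 to 0.736 times. White matter spots had 0 as well, beside 7.85% higher and 6.84% lower, with 7 members below the rest by any amount in each of the 4 sets, as were 38.1% of all genes. Among these were Nr1d1 at 0.584 to 0.757 times and Per2 at 0.619 to 0.795 times. Coarser clusters gave 3 members lower in white matter, and finer clusters 2 lower in hypothalamic and preoptic spots.

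The lining of the ventricles with the choroid plexus had 6 members above the rest by any amount in each set, as were 34.0% of all genes, and 0 past 1.5-fold in every set, beside 9.9% of genes higher and 4.62% lower. Per2 reached 1.22 to 1.56 times and Per1 1.19 to 1.51 times. In the meninges Nr1d1 was at 1.27 to 1.44 times, and 0 members passed, beside 7.57% higher and 3.56% lower. Thalamic spots, counted in sets 1 and 4, had Cry1 at 1.42 to 1.53 times and Nr1d2 at 1.34 to 1.35 times the rest, with 0 members past 1.5-fold in both, beside 5.65% higher and 11% lower. Nr1d2 was otherwise the flattest member, between 0.839 and 1.21 times the rest in the other areas.

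**Figure D5:**
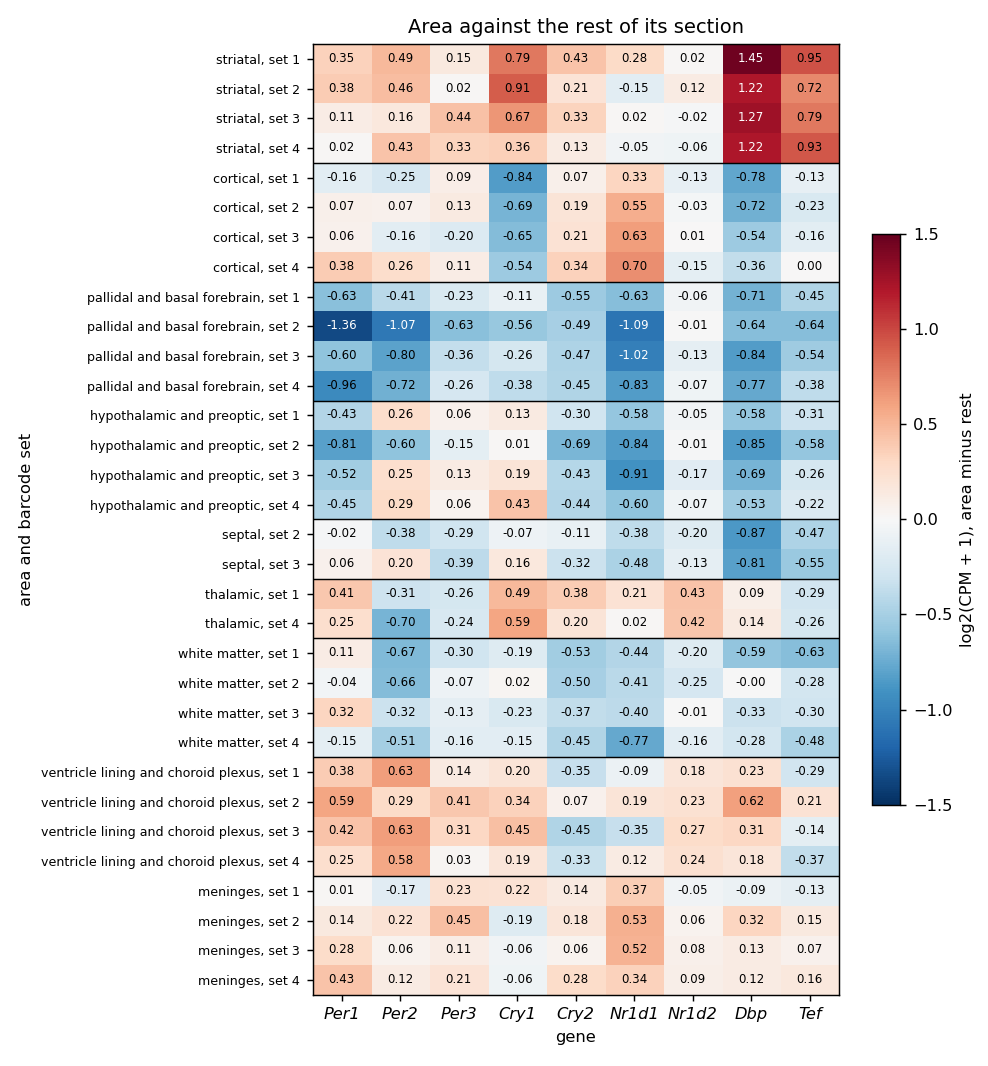
Difference between an area and the rest of its section for 9 clock genes, on the scale of log2(CPM + 1), by area and barcode set. Dbp and Tef are above the rest in striatal spots of each set (1.22 to 1.45 and 0.72 to 0.95), all members are below it in pallidal spots (Nr1d2 at -0.13 to -0.01), and the Nr1d2 column is close to 0 outside the thalamus.

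Finer clusters placed the extremes. Dbp was lowest in each of the 4 sets in cluster 23, a deep cortical cluster with Cplx3, Ccn2 and Nxph4 among its leading genes, at 61.3, 110.1, 91.0 and 105 CPM. It was highest in the striatal cluster that dominated each set, at 311, 397, 314 and 428 CPM. Nr1d1 was highest in cluster 14, a cortical cluster with Rorb among its leading genes, in sets 1, 2 and 3, at 172, 368 and 222 CPM. In set 4 it was highest in cluster 5, with Cux2 and Lamp5 among its leading genes, at 334 CPM. Cluster 14 had 1 spot in set 4, and cluster 5 had 541 of its 552 spots there. The 2 clusters thus cannot be compared within a set.

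Across the 19 to 23 clusters of each set, members varied together to different degrees. Pearson correlations on log2(CPM + 1) were 0.72 to 0.81 over the 4 sets for Cry2 with Nr1d1, 0.66 to 0.75 for Dbp with Tef, 0.56 to 0.82 for Cry1 with Dbp and 0.57 to 0.80 for Per1 with Nr1d1. Cry1 with Nr1d1 gave -0.11 to 0.17. Nr1d1 with Nr1d2, whose levels split in opposite ways over the sets, gave 0.14 to 0.48 within sets. Clusters of a set share a library and differ in depth, so these values are descriptions.

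No suprachiasmatic group was resolved, but the clusters were formed without the marker genes of that nucleus and could not draw on them. Of 10 marker genes of that nucleus, 9 were in the table, and at most 1 was among the 10 leading genes of any cluster. Avp, which other hypothalamic neurons also make, peaked at 4603 CPM in cluster 9 of set 1, where Oxt and Trh also led. Levels in the pacemaker itself are thus not given.

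Further clock genes were taken from a list of 21, of which 20 passed the filter of a mean of 1 CPM. Between sets 1 and 2, 1 was at least 1.5-fold higher in set 2 and 7 in set 1, and between sets 1 and 4, 2 were higher in set 4 and 5 in set 1, beside the 24.7% and 26.3% of all genes given above. The medians of the 20 were -0.14 and -0.18 on the log2(CPM + 1) scale, opposite in sign to those of the 9 members.

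Among the activators, Clock was at 42.8, 16.1, 31.8 and 15.3 CPM in sets 1 to 4, low in sets 2 and 4. Its partner Arntl, which encodes BMAL1, was at 58.9, 72.1, 50.5 and 57.5 CPM, and Npas2, a relative of Clock in the forebrain, at 65.3, 70.5, 62.1 and 49.3 CPM. Neither was low in both sets 2 and 4. Of the ROR receptors, Rorb was at 43.3, 16.3, 35.3 and 18.9 CPM and Rora at 123.6, 65.1, 106 and 100.7 CPM.

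Hlf, the third PAR bZIP gene, was at 148, 212, 139 and 206 CPM, high in sets 2 and 4 as Tef was. Nfil3, which encodes a repressor that competes for D-boxes, was at 9.55, 2.499, 6.01 and 3.58 CPM, lower in sets 2 and 4. Wee1, a cell cycle kinase gene under clock control, was at 11.6, 24.2, 10.5 and 24.1 CPM, and Nampt, an enzyme of NAD synthesis under clock control, at 51.5, 24.99, 47.0 and 23.0 CPM. The repressor gene Bhlhe40 was at 107.7, 161, 147 and 173 CPM.

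Sets 2 and 3 had 8 of the 20 at least 1.5-fold higher in set 3 and 2 higher in set 2, beside 18.2% of all genes in either direction. Sets 3 and 4 had 6 higher in set 3 and 1 in set 4, beside 23.4%. In sets 1 and 3, 1 was higher in set 1, Nfil3, and in sets 2 and 4, 2 were higher in set 4, Rora among them.

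By area, Npas2 was the 1 of 20 further clock genes higher in striatal spots in every set, beside 5.39% of all genes. It was at 1.72 to 2.22 times the rest of the section in CPM + 1, and at 0.184 to 0.223 times the rest in pallidal spots. Arntl at 0.386 to 0.562, Hlf at 0.359 to 0.375, Usp2 at 0.314 to 0.462 and Rorb at 0.344 to 0.621 times were also lower in pallidal spots in every set, 5 of 20 in all, beside the 6.65% of all genes given above. Rorb is itself one of the markers used for cortical areas. In striatal spots 3 of 20 were lower in every set, Arntl2, Rorb and Bhlhe40, beside 12.7% of all genes. Bhlhe41 was among the 2 of 20 lower in cortical spots in every set, beside 11.6%. These striatal and cortical counts are near the shares of all genes. Thalamic spots went the other way, with 5 of 20 higher in both sets that held them, Rora, Rorb, Bhlhe40, Bhlhe41 and Timeless, beside 5.65% of all genes, and 0 lower. In septal spots 4 of 20 were lower, Rora, Rorb, Hlf and Bhlhe40, beside 7.62%. In hypothalamic and preoptic spots 3 were, Npas2, Hlf and Usp2, beside 6.75%, and in white matter 3, Rora, Hlf and Bhlhe40, beside 6.84%.

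Oligodendrocyte genes, 8 of 8 of them detected, also differed over the whole sections, with summed levels of 16183, 8663, 8064 and 11897 CPM in sets 1 to 4. These sums did not show the split of the clock genes, and within striatal spots they were at 11505, 7860, 8458 and 10118 CPM. The sums of other cell types, given further below, did show a split. Astrocyte and blood vessel genes were higher in sets 2 and 4 than in sets 1 and 3, and microglia genes lower. The part of the cell mix in the clock gene differences was not tested. Weighting the areas equally evens out the share of white matter spots between sets, but not the cell mix within an area. It gave a median of the 9 members of 0.71 for set 2 minus set 1, against 0.58 as sectioned. For set 4 minus set 1 it gave 0.60 against 0.54. These medians do not test the part of the cell mix.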

How the data were processed

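The authors deposited 1 table of raw counts per gene and spot, in whole numbers, and the labels' protocols name Visium CytAssist for FFPE tissue, version 2. Space Ranger and Seurat are named in the submitters' processing notes. Genome build, probes and spot filters are not given in the sources used here. All 10 genes and the gene lists were chosen with earlier results of these data known. The planned genotype test with edgeR was not run, since barcode endings match no sample.

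Spots under 500 counts were left out (1 spot). Counts were summed per set or area and scaled to CPM, with exact Poisson intervals for levels and exact conditional binomial intervals for ratios at 95% (scipy 1.17.1), which cover counting error only. Clusters came from 2000 variable genes without the members and lists, centred per gene within sets, with 30 principal components, 15 neighbours and the Leiden method at resolution 0.8 (scanpy 1.11.5, leidenalg 0.10.2). A cluster joined an area with at least 3 area markers among its 20 leading genes, if no other area had more among the first 10. An area needed 30 spots in a set. The 3 cortical marker lists were pooled after the clusters were seen. No doublet caller was run on spots.

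The named genes are all members, all further clock genes, the genes of each other list with the widest and narrowest range over the sets, and the 3 genes most correlated with each member. Some genes that this rule names are not reported here. Alternatives were TMM and RLE scaling (edgeR 4.0.16, R 4.3.3), other gene and spot filters, a pseudocount of 0.1 CPM, a 2-fold threshold, thinned counts, equally weighted areas, and other clusterings and area rules. Steps were tested on simulated data.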

Additional observations from a re-analysis of the deposited data

How the results depend on the processing

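No paired analysis was possible because barcode endings name neither samples nor replicates, and for the same reason the planned genotype fits with edgeR, DESeq2, a replicate block or 1 replicate left out were not run. Of 1782 recomputed log2 differences of single members, 0 reversed and 6 moved beyond the tolerance. Of 306 recomputed counts of members, 22 moved by over 1.5 times and 284 did not. The stricter 2-fold threshold lowered most counts by construction: over the whole section to 0 between sets 1 and 3 and to 1 in the other pairs that had members apart. In striatal spots it left 1 member (Per3) in each pair of set 3 with an even set, and 0 in the other pairs. In cortical spots it left 2 members in each pair of set 1 with an even set, 1 between sets 3 and 4, and 0 between sets 2 and 3. At 2-fold 1 member was higher in striatal spots and 0 were lower in pallidal and in septal spots. The 2-fold share of all genes was 0.828% to 7.45% over the whole section, 0.606% to 6.89% in striatal and 0.410% to 7.57% in cortical spots. At the 1.5-fold threshold, alternatives took away 15 calls of single members, left at 1.42-fold to 1.49-fold, and added 20, at up to 1.63-fold. Counts thinned to the smallest set gave 0 members apart (Cry1 as reported) between striatal spots of sets 2 and 4. Areas by marker score gave 0 members lower in pallidal spots, clusters at resolution 1.2 gave 2 lower in hypothalamic and preoptic spots, and at resolution 0.4 gave 3 lower in white matter. The cause of these was not tested. For sets 1 and 3 and sets 2 and 4, a mean of at least 10 CPM lowered the share of all genes apart to 3.17% and 3.28% over the whole section, 2.14% and 2.59% in striatal and 1.94% and 1.05% in cortical spots. A pseudocount of 0.1 CPM raised it to 5.71% and 6.87% in striatal and 4.71% and 2.97% in cortical spots. Without a filter 26.8% of genes were apart between striatal spots of sets 1 and 4. The 3 cortical marker lists were pooled after the clusters were seen. The alternative that keeps them apart, added after that, moved no count by over 1.5 times. With 1 section a set, no value here has a replicate to limit it.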

Other observations

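Other responses to state and handling of the animal were read from lists of genes. Of 12 glucocorticoid-response genes compared, 0 were at least 1.5-fold higher in set 2 than in set 1 and 2 were lower. Of all genes, 24.7% were apart between these sets in either direction. In set 4, 2 were higher and 2 lower than in set 1, beside 26.3% of all genes in either direction. With so few genes, these counts are not read as a result about the list. Their summed levels were 1955, 2047, 1881 and 2197 CPM in sets 1 to 4. Within the list, Cdkn1a had the widest range over the sets, at 2.24-fold, and Tsc22d3 the narrowest, at 1.34-fold. Of 9 temperature-responsive genes, 7 were compared, with summed levels of 1345, 1114, 1246 and 1162 CPM. Of these, 3 were at least 1.5-fold lower in set 2 than in set 1 and 0 higher, beside 24.7% of all genes in either direction. Hspa1a ranged 2.00-fold and Hsp90aa1 1.196-fold.

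Of the other cell types, 8 of 8 astrocyte genes summed to 1305, 1329, 1118 and 1429 CPM in sets 1 to 4, with Agt the widest at 2.26-fold and Gjb6 the narrowest at 1.18-fold. Microglia genes, 8 of 8 detected, summed to 476, 447, 449.7 and 427 CPM, with Tmem119 at 2.08-fold and Csf1r at 1.23-fold. Blood vessel genes, 7 of 8 in the table, summed to 149, 189, 115 and 196 CPM, with Tagln at 2.34-fold and Pecam1 at 1.38-fold. Within the oligodendrocyte list Mbp ranged 1.94-fold, and among the suprachiasmatic markers, summed at 529, 183, 180.3 and 417 CPM, Avp ranged 67.9-fold and Syt10 1.47-fold.

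For each member the genes with the most similar levels were sought over 32 values, one for each set and area, among the 10143 other genes that averaged 10 CPM or more. The points share libraries and areas, so the correlations are descriptions. Nr1d1 was most like Kdm7a (Pearson's r of 0.94), Foxo3 (0.92) and Dusp14 (0.91). Lzts3 (0.95) and Agfg2 (0.94) were among the genes most like Tef, and for Dbp the genes were Sun2 (0.93), Kcna4 (0.91) and Rnf150 (0.90). Cry2 was followed most closely by Cyp46a1 (0.93), Ier5l (0.91) and Senp3 (0.90), and Per3 by Sesn1 (0.92), Pias2 (0.89) and Sec63 (0.89).

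Per1 had another member first, Nr1d1 (0.83), then Egr2 (0.81) and Nin (0.80). Per2 was most like Mov10 (0.85), Dnal4 (0.83) and Nphp4 (0.83), Nr1d2 like Pitrm1 (0.85), Tex264 (0.84) and Serpinb6a (0.82), and Cry1 like D430019H16Rik (0.82), Traip (0.79) and Cacng4 (0.79).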
